A study of Mus musculus with 4 samples.

Results

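The 9 genes described here are markers and regulators of oligodendrocytes, the myelin-forming glia of the brain, and of Schwann cells, those of peripheral nerves: Olig1, Olig2, Nkx2-2, Sox10, Pdgfra, Cspg4, Erbb3, Cnp and Mbp. They are 9 of the 49997 gene symbols in the deposited count tables, matched by symbol. They were chosen by their detection and by their difference between neurons and proliferating cells in these same libraries. Those differences are therefore given as descriptions, and calls that include these genes are not read as evidence. The 4 mouse libraries came from wild-type iMOP cells, a line of immortalized multipotent progenitors of the inner ear, 2 from proliferating cultures and 2 from neurons derived from them. Proliferating cells were kept in DMEM/F12 with B27, carbenicillin and basic FGF at 20 ng/ml, and neurons in Neurobasal medium with N21, L-glutamine and K03861, an inhibitor of the kinase CDK2, at 1 µM. The groups therefore differed in medium, growth factor and inhibitor together with cell state, and all cultures came from 1 cell line. The labels call the samples biological replicates and name both replicate 2 libraries as set 2, without saying what a set is. Where a pair of values is given for a group, replicate 1 comes first.

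The count tables held 7446361 to 14484011 counts per library, of which 53.3% to 76.1% fell in 1 row for 18S ribosomal RNA, with the higher shares in both replicate 2 libraries. This left 2595578 to 3850766 counts for all other genes. Levels are given as CPM, the usual per-library scaling of counts, computed on library totals scaled by edgeR's TMM factors, and 1 count was worth 0.0822 to 0.135 CPM. Of the 9 genes, 5 passed the filter on low counts (Olig1, Olig2, Cspg4, Pdgfra and Cnp), 8 had at least 1 count in some library and 1 was at 0 throughout. Intervals on ratios of counts are exact 95% intervals and cover counting error only, since the reads carried no molecular identifiers.

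In the developing central nervous system, OLIG2 and its paralog OLIG1 are basic helix-loop-helix transcription factors that specify oligodendrocyte precursors, and OLIG2 also acts in motor neuron progenitors. The precursors carry the PDGF receptor alpha and the proteoglycan NG2, the product of Cspg4. The homeobox factor NKX2-2 and the HMG-box factor SOX10 then drive differentiation, and CNP and MBP are proteins of the myelin sheath. Schwann cells derive from the neural crest, depend on SOX10 and respond to axonal neuregulin through the receptor pair ERBB2 and ERBB3. In the inner ear SOX10 also marks the otic epithelium, and Schwann and satellite cells surround the spiral ganglion neurons. CHD7, the chromatin remodeller in the title of the study, is known as a partner of SOX10 in oligodendrocyte differentiation.

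The sequences just upstream of Olig2, Cspg4 and Cnp are shown because these genes stood for 3 patterns in the counts. Olig2 was low in both neuron libraries, Cspg4 was high in proliferating replicate 2 alone, and Cnp varied least. They are RefSeq promoter entries of build GRCm38.p6, plus strand, cut before the first annotated transcript start, at chr16:91225300-91225456 for Olig2, chr9:56864854-56865032 for Cspg4 and chr11:100574689-100574903 for Cnp. Of the 9 genes 5 matched the RefSeq promoter table, also Pdgfra and Nkx2-2, and Olig1, Sox10, Erbb3 and Mbp did not. Capitals mark matches on either strand to the E-box CANNTG, bound by basic helix-loop-helix factors, to the SOX core ACAAT, or to the CCAAT box. The CCAAT box was added to the search after the sequences had been seen.
Olig2: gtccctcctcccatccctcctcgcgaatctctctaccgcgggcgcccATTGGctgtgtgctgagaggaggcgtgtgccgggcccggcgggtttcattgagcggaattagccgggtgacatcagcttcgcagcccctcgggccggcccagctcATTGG
Cspg4: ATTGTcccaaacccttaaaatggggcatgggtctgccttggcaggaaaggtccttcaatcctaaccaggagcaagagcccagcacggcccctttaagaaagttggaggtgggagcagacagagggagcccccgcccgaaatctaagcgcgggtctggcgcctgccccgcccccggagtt
Cnp: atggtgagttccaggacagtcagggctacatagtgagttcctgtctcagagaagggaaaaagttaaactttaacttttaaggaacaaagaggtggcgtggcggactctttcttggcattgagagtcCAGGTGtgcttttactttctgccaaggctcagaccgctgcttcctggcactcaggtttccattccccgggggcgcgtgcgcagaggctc

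The 157 bases before Olig2 held 2 CCAAT boxes, both read on the minus strand as ATTGG, and no E-box or SOX core. Among the 32851 promoter entries, 21.0% held a CCAAT box in a window of that length, 50.8% an E-box and 19.3% a SOX core. The 179 bases before Cspg4 held 1 SOX core, a match found in 21.5% of such windows, and the 215 bases before Cnp held 1 E-box, found in 61.4%. No matches overlapped. The GC content was 66.9% before Olig2, 60.3% before Cspg4 and 52.1% before Cnp, against medians of 51.0%, 51.4% and 51.6% over all entries cut to the same lengths. These matches describe the letters of the windows and say nothing about binding in these cells.

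Olig2 and Olig1 were abundant in proliferating replicate 2, low in proliferating replicate 1 and nearly absent from both neuron libraries. Olig2 (chr16:91225550-91228677, build GRCm38, plus strand) had 48 counts in proliferating replicate 1 and 445 in proliferating replicate 2, against 10 and 5 in neuron replicates 1 and 2. In CPM these were 3.94 and 60.2 in proliferating cells and 0.841 and 0.510 in neurons, a mean of 32.1 ± 39.8 against 0.675 ± 0.234 (SD, n = 2 each). The 2 groups did not overlap, but the proliferating libraries stood 15.3-fold apart (11.3 to 21.0), more than the difference within the replicate 1 pair. Within that pair Olig2 was 4.69-fold lower in neurons (2.34 to 10.4), and within the replicate 2 pair 118-fold lower (50.3 to 366).

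Olig1 (chr16:91269769-91271939, plus strand) was also highest in proliferating replicate 2, with 31 and 167 counts in proliferating cells against 3 and 4 in neurons. Its CPM was 2.55 and 22.6 in proliferating cells and 0.252 and 0.408 in neurons, or 12.6 ± 14.2 against 0.330 ± 0.110 (SD, n = 2 each). Neurons were 10.1-fold lower for replicate 1 (3.15 to 51.6) and 55.4-fold lower for replicate 2 (21.3 to 206). Both neuron libraries lay at or within 1 count of 3 counts, the upper limit taken for a count of 0, so the neuron level of Olig1 was barely distinguishable from none at this depth.

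The fitted log2 fold change, neurons minus proliferating cells, was -5.53 (SE 1.29) for Olig2 and -5.21 (SE 1.15) for Olig1. They ranked as the 8th and 12th lowest of the 12783 genes that passed the filter. Proliferating replicate 2 set their size: without it the values were -2.51 and -2.92. Per kilobase of exon, Olig2 exceeded Olig1 by 2.28-fold in proliferating replicate 2 (1.90 to 2.74) and by 1.32-fold in proliferating replicate 1 (0.825 to 2.15), an interval that includes equality. In the neuron libraries the counts of both genes were too few to order them, with ratios of 2.85 (0.733 to 16.1) and 1.07 (0.230 to 5.38).

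**Figure D1:**
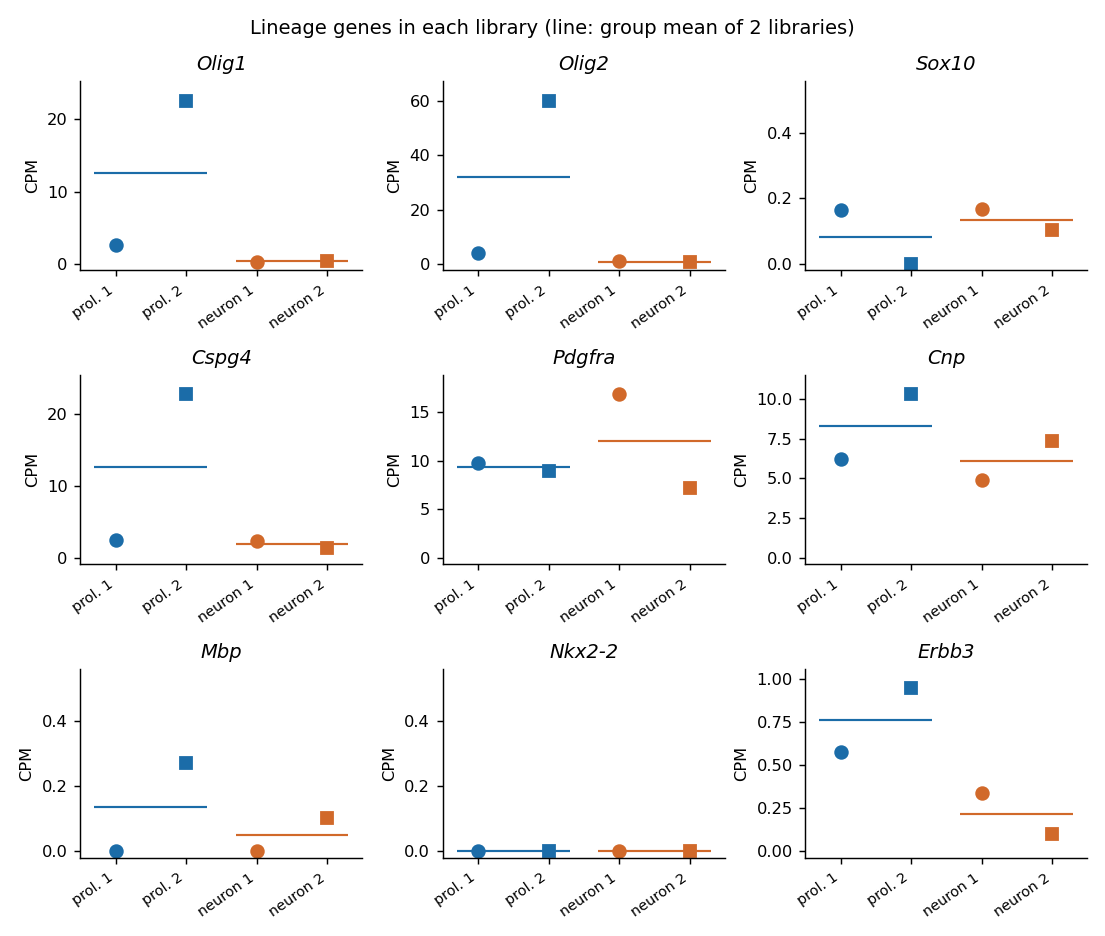
CPM of the 9 genes in each of the 4 libraries, with circles for replicate 1, squares for replicate 2, blue for proliferating cells, orange for neurons and a line at the mean of each group; axes differ between genes. Olig1, Olig2 and Cspg4 have 1 high point, proliferating replicate 2, while Pdgfra and Cnp stay between 4.88 and 16.8 CPM and the remaining genes stay under 1 CPM.

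Of the surface proteins of oligodendrocyte precursors, Cspg4 shared the high value of proliferating replicate 2, and Pdgfra did not. Cspg4 (chr9:56865104-56899870, plus strand) had 30 and 168 counts in proliferating cells against 28 and 13 in neurons, or 2.46 and 22.7 CPM against 2.36 and 1.33 CPM. The groups touched, with proliferating replicate 1 next to neuron replicate 1. Within the replicate 1 pair the neuron level was 0.956 times the proliferating one (0.550 to 1.66), an interval that includes no difference. Within the replicate 2 pair it was 17.2-fold lower (9.77 to 32.9). The fitted log2 fold change of -2.75 (SE 0.99) was -0.41 without proliferating replicate 2. Cspg4 is also expressed by pericytes, and Pdgfra by many mesenchymal cells. Of 9 pericyte and fibroblast genes, 4 were at 0 in all libraries, among them Pdgfrb, Rgs5 and Dcn, and 0 passed the filter.

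Pdgfra (chr5:75151322-75198206, plus strand) was present in all 4 libraries and did not separate the groups. It had 119 and 66 counts in proliferating cells against 200 and 70 in neurons, which is 9.78 and 8.93 CPM against 16.8 and 7.14 CPM. The highest and the lowest level were both in neurons. The neuron level was 1.72 times the proliferating one in the replicate 1 pair (1.36 to 2.18) and 0.799 times in the replicate 2 pair (0.562 to 1.14), so the pairs pointed in opposite directions. The fitted log2 fold change was 0.36 (SE 0.56), and -0.43 without neuron replicate 1.

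Cnp, which codes for a myelin enzyme that many other cells also express at lower levels, varied least. It lies at chr11:100574909-100591875 on the plus strand. It had 76 counts in each proliferating library and 58 and 72 in the neuron libraries, or 6.24 and 10.3 CPM against 4.88 and 7.34 CPM. The ranges of the groups overlapped. Neurons were at 0.781 times the proliferating level in the replicate 1 pair (0.545 to 1.11) and at 0.713 times in the replicate 2 pair (0.510 to 0.998). The difference between the proliferating libraries, 1.65-fold (1.18 to 2.29), was as large. Cnp shares 4.23% of its exon bases with Dnajc7 on the other strand. How strand was used in counting is not given in the sources used here, so reads of this stretch cannot be assigned. Dnajc7 had 112 to 209 counts.

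**Figure D2:**
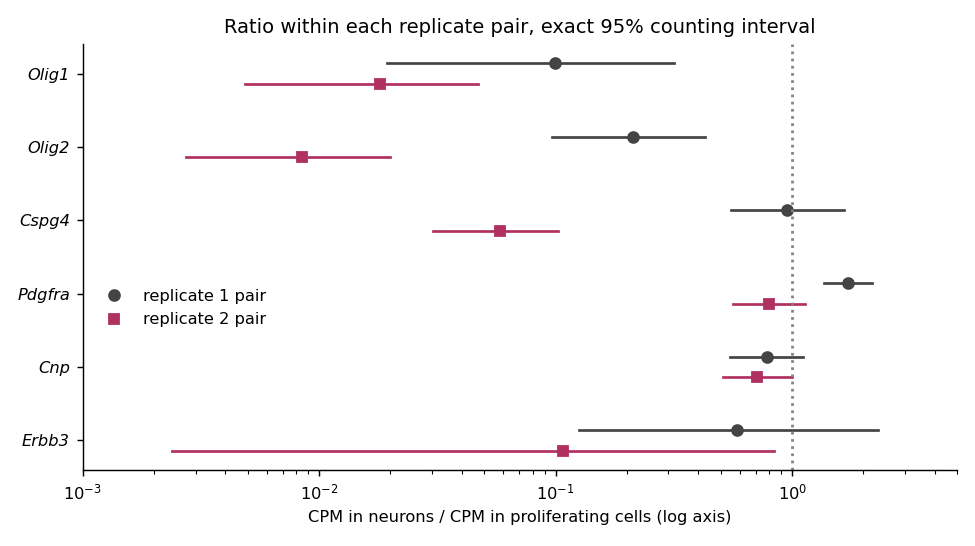
Ratio of CPM in neurons to CPM in proliferating cells for 6 of the genes, on a log axis, with exact 95% counting intervals, by replicate pair. Both pairs lie left of 1 for Olig1 and Olig2, whereas for Cspg4 the replicate 1 pair lies at 0.956 and the replicate 2 pair at 0.0583.

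Nkx2-2, Sox10 and Mbp were at or near 0 in every library and Erbb3 was low, whereas Cnp, also a myelin gene, was detected in all. Nkx2-2 (chr2:147176485-147195434, minus strand) had 0 counts in all 4 libraries, which allows at most 0.246 to 0.406 CPM per library. Sox10 (chr15:79154913-79164490, minus strand) had 2 and 0 counts in proliferating cells against 2 and 1 in neurons. Mbp had 0 and 2 counts in proliferating cells and 0 and 1 in neurons, over all of its transcripts, including the Golli forms that other cell types make. No fold is given for these genes, since every library was at or under the limit of 3 counts. Erbb3 (chr10:128567523-128589635, minus strand), the neuregulin receptor of Schwann cells, had 7 counts in each proliferating library and 4 and 1 in the neuron libraries. The neuron level was 0.585 times the proliferating one for replicate 1 (0.126 to 2.30) and 0.108 times for replicate 2 (0.00239 to 0.837), and it did not pass the filter.

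Set against their label as genes of the oligodendrocyte and Schwann lineages, the gene for SOX10, which both lineages share, and the myelin gene Mbp had at most 2 counts in any library. What was detected were the precursor factors Olig1 and Olig2 in proliferating cells, with Cspg4, Pdgfra and Cnp. In bulk RNA, fewer cells of a type and less RNA per cell cannot be told apart, so the counts do not say whether all cells or a few carried Olig1 and Olig2.

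Ordered by level per kilobase of exon in proliferating replicate 2, Olig2 came first with 23.8 CPM per kb, then Olig1 with 10.5, Cnp with 2.83, Cspg4 with 1.91 and Pdgfra with 0.891. In proliferating replicate 1 the range was narrower, from 1.72 CPM per kb for Cnp, 1.56 for Olig2 and 1.18 for Olig1 to 0.975 for Pdgfra and 0.207 for Cspg4. In neurons Cnp (1.34 and 2.02 CPM per kb) and Pdgfra (1.68 and 0.712) stood above Olig2 (0.332 and 0.201), Cspg4 (0.197 and 0.111) and Olig1 (0.117 and 0.189). The means over 2 libraries of Olig2 and Olig1 in proliferating cells, 12.7 ± 15.7 and 5.82 ± 6.56 CPM per kb (SD), had SDs above the means. The order of Olig2, Olig1 and Cnp in that group thus did not exceed the spread between libraries. The deposited RPKM values imply lengths of 4.23 times the exon length for Pdgfra, 2.39 times for Cnp and 0.675 times for Cspg4. By RPKM several of these orders were reversed. In proliferating replicate 2, Cspg4 (2.01) stood above Cnp (0.841). In proliferating replicate 1, Olig2 (2.65) and Olig1 (1.92) stood above Cnp (1.17), and Cspg4 (0.500) above Pdgfra (0.377). In neuron replicate 2, Pdgfra (0.114) stood below Olig2 (0.142) and Olig1 (0.127). In neuron replicate 1 the order of Pdgfra (0.498), Olig2 (0.433) and Olig1 (0.146) was kept.

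As a set, 4 of the 5 genes that passed the filter were lower in the neuron library of both pairs, where 25.5% of all 12783 tested genes were, and 0 were higher in both, against 28.8%. For 3 of the 5 both neuron libraries lay below both proliferating libraries, as for 14.5% of tested genes, with Cspg4 separated only by 2.46 against 2.36 CPM. The median log2 fold change over the 5 was -2.75, beside 0.024 over all tested genes. By pair, the median was -0.34 for replicate 1 and -3.92 for replicate 2, beside -4.2e-05 and 0.067 over all tested genes, and -0.41 without proliferating replicate 2. The genes were chosen on this contrast and nothing is read from these shares. The edgeR quasi-likelihood test called 0 of the 12783 genes at a Benjamini-Hochberg adjusted p-value under 0.05, which is 0%, with 438 at an unadjusted p-value under 0.05 and 60 called by DESeq2, Olig1 and Olig2 among them. Without a gene filter edgeR called 41 genes higher and 122 lower of 25859, with Olig1, Olig2 and Cspg4 among the lower. With the replicate number as a block edgeR called 3 genes, none of them among the 9 (Egr1, Gfap and Slc6a11, the first named after its value was seen). Without proliferating replicate 1 the log2 fold changes of Olig1, Olig2 and Cspg4 were -6.09, -6.45 and -3.63. Without proliferating replicate 2 they were -2.92, -2.51 and -0.41. Without neuron replicate 1 they were -4.94, -5.98 and -3.27, and without neuron replicate 2 -5.56, -5.23 and -2.40. The calls of Olig1, Olig2 and Cspg4 rest on the contrast that chose the genes.

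**Figure D3:**
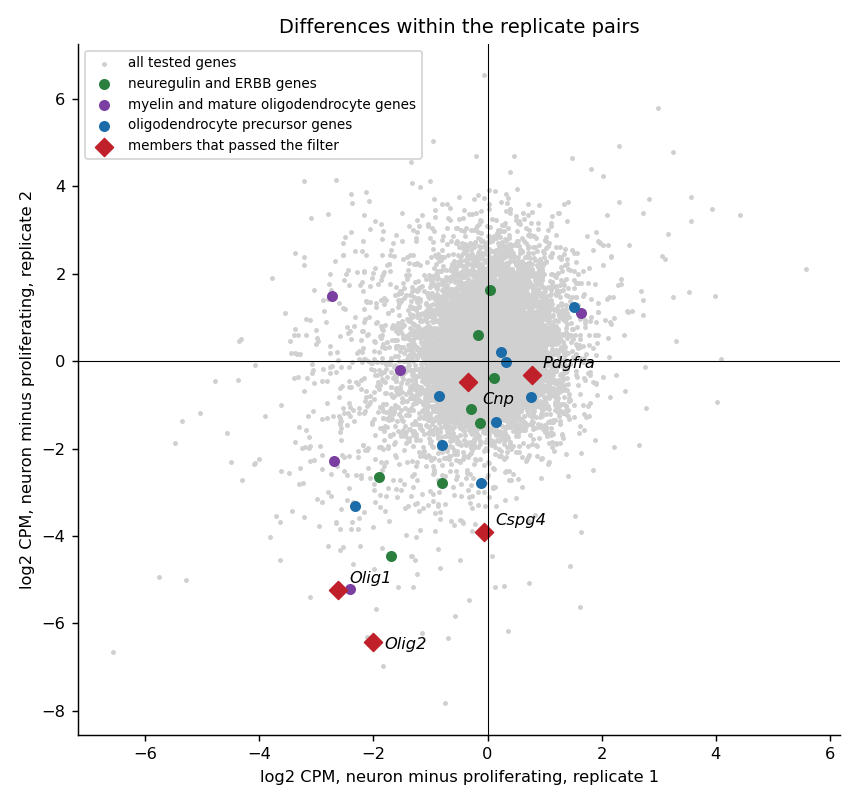
Difference in log2 CPM between neurons and proliferating cells in the replicate 1 pair (horizontal) and the replicate 2 pair (vertical) for all tested genes (grey), 3 gene lists (coloured circles) and the 5 lineage genes that passed the filter (red diamonds). Olig1 and Olig2 lie at the lower left, with Olig1 at -2.62 and -5.24 and Olig2 at -6.42 on the vertical axis, and Cspg4 lies at -0.06 and -3.92.

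Olig1 and Olig2 were among each other's nearest neighbours in profile. Likeness was measured as the Euclidean distance between log2 CPM profiles over the 4 libraries, each centred on its mean. Of 12782 other genes, Olig1 was the 2nd nearest to Olig2 (distance 0.947) and Olig2 the 6th nearest to Olig1. The nearest gene to both was Car2, the carbonic anhydrase 2 gene, with 21 and 108 counts in proliferating cells and 2 in each neuron library (distances 0.252 to Olig1 and 0.907 to Olig2). Adrb1 and Hbegf came next for Olig1, and Plk2 and Itga5 for Olig2. Cspg4 ranked 57th for Olig1 and 37th for Olig2, while Cnp ranked 2051st and 2265th and Pdgfra 8039th and 7371st. The genes nearest to Cspg4 were Ppp1r2, Ccnd1 and Stk40, those nearest to Pdgfra were Prelid3a, Crnde and Adnp, and those nearest to Cnp were Clk3, Ercc2 and Gcn1. These profiles share 4 libraries, and the ranks are a description of them.

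Olig2 and Olig1 lie 41.1 kb apart on chromosome 16, and the other genes around them did not share their pattern. The noncoding RNA gene Gm52261, which overlaps the end of Olig2, shared the low neuron counts but not the high value of proliferating replicate 2. Within 500 kb on either side, 20 other genes passed the filter, with a median log2 fold change of -0.10, and 7 were lower and 6 higher in neurons in both pairs. Gm52261 had 15 and 21 counts in proliferating cells against 4 and 0 in neurons, a log2 fold change of -3.41. Reads of Gm52261 and Olig2 cannot be told apart where these overlap. Without it the fold changes in the window ran from -1.09 for Ifngr2, a chain of the interferon gamma receptor, to 1.34 for Dnajc28. The interferon receptor genes Ifnar1 and Ifnar2 had 150 to 208 and 24 to 43 counts.

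**Figure D4:**
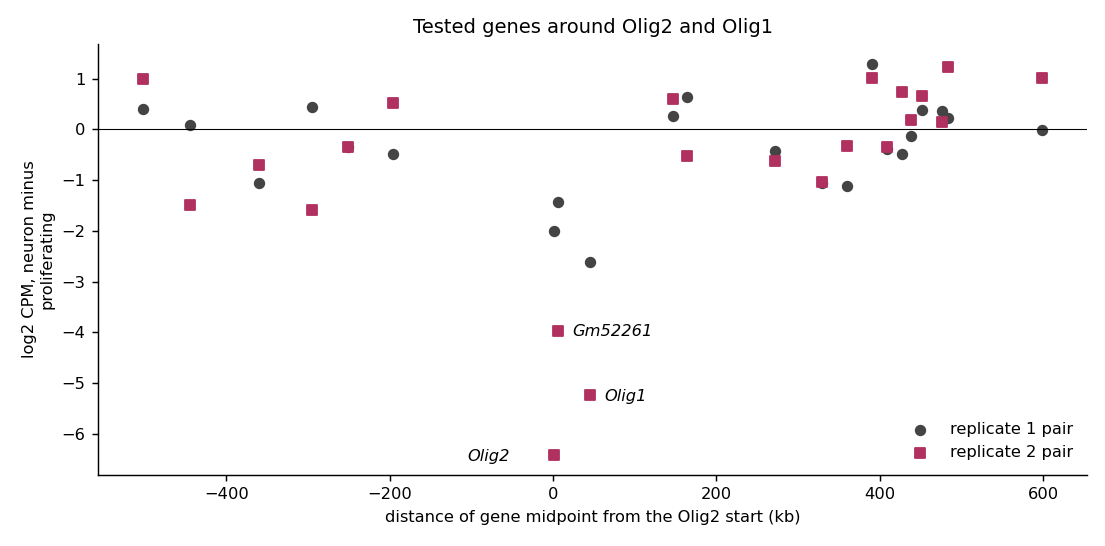
Difference in log2 CPM between neurons and proliferating cells for tested genes around Olig2, against the distance of the gene's midpoint from the Olig2 start in kb, with circles for the replicate 1 pair and squares for the replicate 2 pair. Olig2, Olig1 and Gm52261 lie below all other genes in the replicate 2 pair.

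Other genes of these lineages were read from 7 lists holding 99 genes, of which 51 passed the filter. The edgeR quasi-likelihood test called 0 of them in either direction, as it called 0% of all tested genes. At an unadjusted p-value under 0.05 by that test were 11 of them, and 438 of all 12783. DESeq2 called 4, all lower in neurons: Car2, Egfr, Hbegf and Ptprz1. Over all tested genes it called 12 higher and 48 lower. Of the 51 genes, 21 were lower and 12 higher in neurons in both pairs, against 25.5% and 28.8% of all tested genes. Their median log2 fold change was -0.19. The same 25.5% and 28.8% apply to each list below. The lists were chosen with earlier results of these data known, and nothing is read from these counts.

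Among 20 further genes of oligodendrocyte precursors, 9 passed the filter, with 4 lower and 2 higher in neurons in both pairs and a median log2 fold change of -0.75. Ptprz1, a receptor phosphatase of precursors and radial glia, had 684 and 303 counts in proliferating cells against 132 and 39 in neurons, and was low in both neuron libraries. Its level was 48.6 ± 10.7 CPM against 7.54 ± 5.04 CPM (SD, n = 2 each), with a log2 fold change of -2.68 (SE 0.62), and the adjusted p-value by edgeR was 0.775. Sox8, a relative of Sox10, had 169 and 221 counts against 94 and 76. Sox5, a SOXD factor of precursors, went the other way with 35 and 16 counts against 102 and 53, a log2 fold change of 1.46 (SE 0.54). Gpr17 and Zfp488, which mark cells committed to differentiate, were at 0 in all libraries, and Myrf, the master regulator of myelin genes, had 6 to 14 counts.

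Of 20 myelin and mature oligodendrocyte genes, 9 were at 0 in all libraries, including Mag, Mobp and Opalin, 11 had a count and 5 passed the filter. Of these 5, 3 were lower and 1 higher in neurons in both pairs. The 2 genes with the lowest values were Car2, described above, and Gsn, which codes for the actin-severing protein gelsolin, with 46 counts in each proliferating library and 5 and 11 in the neuron libraries. Ugt8a, an enzyme of galactolipid synthesis, had 4 and 7 counts against 17 and 22. Of the Schwann cell and neural crest genes, 6 of 20 passed the filter, with 3 lower and 1 higher in neurons in both pairs, while Foxd3, Cdh19 and Gfra3 were at 0. The sum over this list was 70.6 and 53.3 CPM in proliferating cells and 82.4 and 70.6 CPM in neurons. Egr2, a transcription factor needed for Schwann cell myelination that is also an early response gene, had 30 and 29 counts in proliferating cells and 3 and 2 in neurons. Ednrb, the endothelin receptor of the neural crest, had 143 and 20 counts against 15 and 4. Zeb2, a transcription factor of neural crest and Schwann cells, had 357 and 95 counts in proliferating cells and 521 and 358 in neurons and was the gene higher in both pairs. Tfap2a, a neural crest factor, had 42 and 146 counts against 290 and 177. The edgeR adjusted p-values were 0.775 for Car2 and Egr2, 0.868 for Gsn and 0.966 for Ednrb.

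Egfr, Erbb2 and Erbb4 passed the filter and Erbb3, described above, did not. Of 12 neuregulin and ERBB genes 8 passed the filter, with 5 lower and 1 higher in neurons in both pairs and a median log2 fold change of -0.76. Egfr, the EGF receptor, had 277 and 261 counts in proliferating cells against 71 and 54 in neurons, so that the groups lay apart with little spread. Its level was 29.0 ± 8.89 CPM against 5.74 ± 0.330 CPM (SD, n = 2 each), with a log2 fold change of -2.34 (SE 0.50), and the adjusted p-value by edgeR was 0.775. Hbegf, an EGF receptor ligand, had 55 and 312 counts against 15 and 17, and Lrig1, an inhibitor of ERBB receptors, had 414 and 537 against 232 and 102. Erbb2, the partner of ERBB3, had 106 and 104 counts against 94 and 51, and Erbb4 had 476 and 88 against 481 and 368. The ligand gene Nrg1 had 4 to 19 counts per library, and Nrg3 was at 0. Of 6 PDGF genes 2 passed the filter. Pdgfa, the ligand of PDGFRA, had 34 and 54 counts in proliferating cells and 36 and 28 in neurons.

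Markers of other cell types were set beside these values. The summed level of 10 astrocyte and radial glia genes was 252 and 277 CPM in the proliferating replicates and 128 and 81.4 CPM in the neuron replicates. Of these 10 genes, 8 passed the filter and Gja1 was at 0. Of the 8, 5 were lower in neurons in both pairs and 0 higher, against 25.5% and 28.8% of all tested genes. Within the list, Gfap had 181 and 89 counts against 1 and 2, and Slc6a11 had 221 and 143 against 0 and 0. Slc1a2, Aqp4 and Aldoc went opposite ways in the pairs, Slc1a2 with 207 and 67 counts against 180 and 507. With the replicate number as a block, the edgeR adjusted p-values were 0.0158 for Gfap and 0.0111 for Slc6a11, both lower in neurons, and 0 of the 51 list genes were called. Between the proliferating replicates, Aldoc differed as 16.5 and 79.2 CPM, Fabp7 as 22.3 and 49.0 CPM and Aqp4 as 29.2 and 0.271 CPM. The 8 neuron genes summed to 148 and 326 CPM in proliferating cells and 194 and 335 CPM in neurons, where Tubb3 alone accounted for 19.1 and 194 CPM against 28.8 and 105 CPM. The median difference over the 8 genes was 0.18 on the log2 scale for replicate 1 and 0.97 for replicate 2, and 2 genes, Elavl4 and Map2, were higher and 1 lower in neurons in both pairs.

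The defining genes of microglia were at or near 0, with a sum of 0 to 0.841 CPM over 5 genes, and Cx3cr1 and C1qa at 0. Melanocyte genes, another SOX10-dependent lineage, summed to 0.204 to 1.48 CPM over 5 genes, and Tyr, Dct and Tyrp1 were at 0. The pericyte and fibroblast genes summed to 0.505 to 2.38 CPM. Of 9 otic progenitor genes, 4 were at 0 in all libraries, among them Pax2 and Pax8, while Sox2 had 216 to 402 counts and Eya1 27 to 103. The sum over this list was 35.9 and 53.2 CPM in proliferating cells and 43.3 and 29.3 CPM in neurons. The part of any of these markers in the values of Olig1, Olig2 and Cspg4 was not tested, nor was that of the 18S share or of the set.

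**Figure D5:**
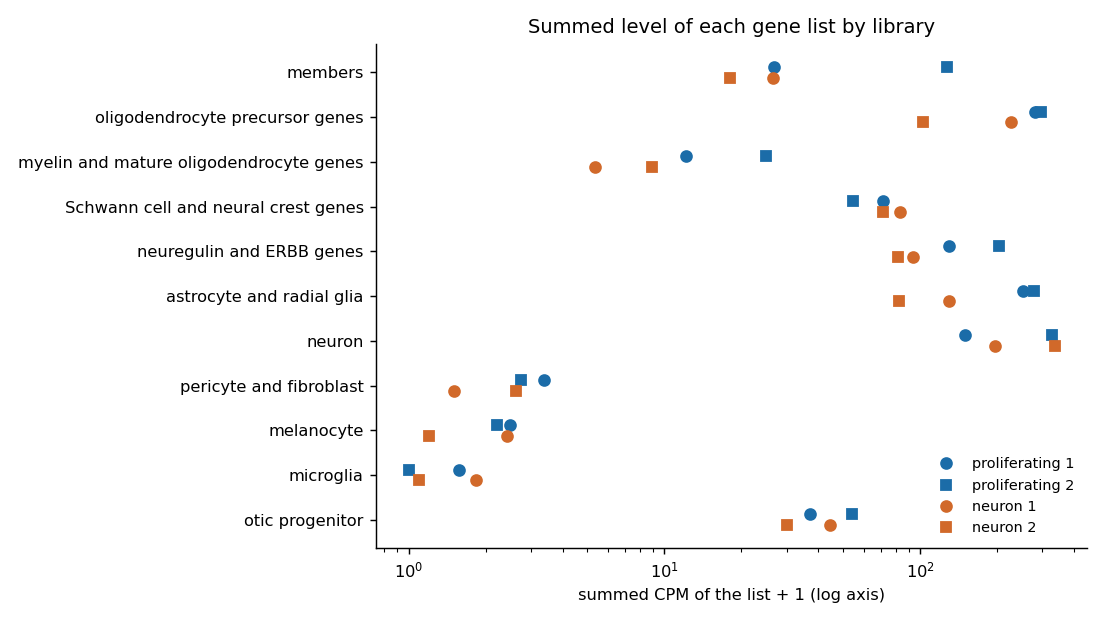
Summed CPM plus 1 of each gene list in the 4 libraries, on a log axis, with circles for replicate 1, squares for replicate 2, blue for proliferating cells and orange for neurons. The 9 lineage genes sum to 126 CPM in proliferating replicate 2 and to at most 25.7 CPM in the other 3 libraries, while pericyte, melanocyte and microglia lists stay near the left edge.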

How the data were processed

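Total RNA of 4 iMOP cultures was depleted of ribosomal RNA and sequenced as stranded libraries, per the labels' protocols. For each library the authors deposited a table of raw counts and 1 of RPKM. The submitters' processing notes name build mm10 and the tools HISAT2, SAMtools, featureCounts, DESeq2 and deepTools 3.4.3, with no role, and the strand setting, annotation and treatment of reads with several matches are not given in the sources used here. Every one of the 49997 symbols matched RefSeq GRCm38.p6, from which coordinates and promoter sequences come. Exon lengths are unions over GENCODE M21 transcripts.

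The main fit used edgeR 4.0.16 in R 4.3.3 on the deposited counts of all 4 libraries: TMM, filterByExpr (minimum count 10, minimum total 15), glmQLFit and glmQLFTest, group as the only term, two-sided, Benjamini-Hochberg over 12783 genes. On simulated counts of these 12783 genes with a biological coefficient of variation of 0.456, it called 21% of changes of 2 and 94% of changes of 4 on the log2 scale, with 13 false calls. The simulation gave every gene the same variation. Its shares therefore do not hold for genes that vary more between libraries, as Olig1 and Olig2 did. Differences in log2 CPM within a pair use a prior count of 2. The ratios within a pair, and their intervals, use counts over the scaled library totals with no prior count. The p-values measure the spread between 2 cultures per group of 1 line. An exact permutation of 1 value was not used, as 2 against 2 cannot pass the threshold.

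Both replicate 2 titles carry the words set 2, so replicate numbers were taken as pairs, and libraries of the same number deviated from their group means together (r = 0.33 across genes). The 9 genes, the 7 lists and the 6 marker lists were chosen with earlier results of these data known. Any of these genes may be named, as may neighbours of a lineage gene and the 3 nearest profiles of each. Alternatives covered scaling, filter, tool (DESeq2 1.42.0), RPKM with limma 3.58.1, the 18S row, the replicate block and each library left out. Intervals used scipy 1.17.1.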

Additional observations from a re-analysis of the deposited data

How the results depend on the processing

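With 2 libraries per group, and 5 or fewer counts of Olig1 and Olig2 in 3 of 4 neuron values, depth limits what can be said of the low side of these genes. Under 13 alternatives, 64 of 65 fold changes of the 5 lineage genes that passed the filter kept their sign and 10 moved by more than the SD between the replicate pairs. That SD is each gene's own and is widest where its pairs disagree. Without proliferating replicate 2, Olig2 went from -5.53 to -2.51 and Cspg4 from -2.75 to -0.41, and neither counted as moved. Cnp at -0.66 with library size alone did. The exception in sign was Pdgfra without neuron replicate 1 (-0.43, and up to 0.85 without neuron replicate 2). Leaving out each library in turn gave -6.09 to -2.92 for Olig1 and -0.78 to -0.034 for Cnp, the upper end of each without proliferating replicate 2. With log2(RPKM + 1), where low genes change less, Olig1 was at -2.12 and Cnp at -0.29. Cnp was at -0.58 with log2(RPKM + 0.1) and at -0.66 with library size alone, a scaling under which the median over all tested genes shifted by -0.29.

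By edgeR, no gene was called higher or lower with RLE size factors, with the CPM filter, which kept as many genes, or with the 18S row left out. DESeq2 called 12 genes higher and 48 lower, and no gene filter gave 41 and 122 of 25859. Lower calls alone came from library size alone (2), log2(RPKM + 1) (1), log2(RPKM + 0.1) (2) and the replicate block (3), which changed no other call. The genes were Gfap, Slc6a11 and Egr1. Leaving out a library, where the lone library of a group is assumed to vary like the others, gave 1 to 37 higher and 9 to 90 lower, the most without proliferating replicate 1. Of the list genes, 4 were called lower by DESeq2, 6 without a filter and 0 to 3 with a library left out. For these differences the cause was not tested.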

Other observations

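One list was drawn up as inhibitors of oligodendrocyte differentiation. It includes Tcf3 and Tcf4, and whether each of its genes acts that way was not tested. Of its 12 genes 11 passed the filter and Bmp4 was at 0, with 4 lower and 3 higher in neurons in both pairs. Their median log2 fold change was 0.0081, and edgeR called 0 of them. Sox11, a SOXC factor of immature neurons and precursors, had 2598 and 1376 counts in proliferating cells against 3092 and 2895 in neurons, and Sox4 had 782 and 771 against 1090 and 1373. Hes5, a Notch target, went opposite ways in the pairs, with 79 and 181 counts in proliferating cells and 243 and 3 in neurons.

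The 10 genes listed as chromatin partners of OLIG2 and SOX10 were detected in every library, and whether each is a partner was not tested. All 10 passed the filter, with 2 lower and 4 higher in neurons in both pairs, against 25.5% and 28.8% of all tested genes. Their median log2 fold change was 0.023, and edgeR called 0 of them. Hdac2, a deacetylase needed in oligodendrocyte differentiation, had 467 and 269 counts in proliferating cells against 637 and 454 in neurons. Med12, a Mediator subunit, had 174 and 150 against 94 and 64 and was the gene of this list with an unadjusted p-value under 0.05, with an edgeR adjusted p-value of 0.9998.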
